A study of Mus musculus with 11 samples.

Results

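The mouse genes Erbb4, Cntnap2, Csmd1 and Lrp1b each span a megabase or more of DNA and are best known from neurons. Their 4 windows were followed here through a Hi-C data set of T helper 1 (Th1) cells. The windows, in genome build mm9, were chr1:68000001-69300000 for Erbb4, chr6:45000001-47300000 for Cntnap2, chr8:15800001-17600000 for Csmd1 and chr2:40400001-42600000 for Lrp1b. They are 4 regions beside 1883 autosomal windows of 1.3 Mb, the length of the shortest of them. The windows were chosen as very long neuronal genes, and in part chosen by a measured value, the low share of contacts of Erbb4 with other chromosomes. For that reason that share is described at Erbb4 without a test. No RNA was measured in these samples, so whether the genes are silent in these cells was not examined. No mm9 gene annotation was used here, so exons and the exact gene ends are not placed within the windows.

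Hi-C joins pieces of DNA that were near one another in the nucleus, and each contact names the 2 restriction fragment ends that were joined. The cells were CD4+ Th1 cells from spleens of male C57BL/6 mice. They were activated with anti-CD3, selected with anti-CD4 beads and grown with IL-2. Bgl II cut the DNA of the ensemble map, which is made from a population of cells, and of cells 1 to 7, 9 and 10. Dpn II cut the DNA of cell 8. A further map pools single cells, and how many cells it holds is not given in the sources used here. All contacts of the 9 Bgl II cells recur in that pool, so they were taken out of it before use, and what is left is called the remaining pool. No group differs in genotype or treatment, and no label says whether the cells came from separate animals. The p-values over cells therefore measure only the spread between these cells.

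The ensemble held 51834382 distinct contacts and the remaining pool 2119836. The 9 Bgl II cells held 11156 to 30665 contacts each, 175025 in sum, and cell 8 held 12225. Contacts between chromosomes (trans contacts) made up 50.7% of the ensemble and 6.96% to 25.9% of the single Bgl II cells. Intervals given below are 95% Wilson intervals unless named otherwise, and they cover counting error only.

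Erbb4 encodes a receptor tyrosine kinase that binds neuregulins. Cntnap2 encodes Caspr2, a neurexin-family adhesion protein of myelinated axons. Csmd1 encodes a large membrane protein of CUB and sushi domains, and Lrp1b encodes a large endocytic receptor of the low-density lipoprotein receptor family. Genes of this length are mostly intron and tend to lie in gene-poor parts of chromosomes. In many cell types, regions that are not transcribed gather at the nuclear lamina and contact one another more than they contact active chromatin. The first eigenvector of a Hi-C correlation matrix sorts the genome into 2 classes that often follow this division. The classes are not named active or inactive here, since no annotation was used to orient them.

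In the RefSeq annotation of another mouse build, GRCm38.p6, used here only for names, the nearest protein-coding genes around Erbb4 were Cps1 and Ikzf2. Ikzf2 encodes Helios, a transcription factor of the lymphoid lineage. Csmd1 lay between Myom2 and Mcph1, with C030002A05Rik annotated inside it. Lrp1b lay between Ppp6c and Kynu, which encode a phosphatase subunit and kynureninase. Apart from C030002A05Rik, 0 other protein-coding genes overlapped any of the 4.

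To set each window in context, autosomal windows of the same length were laid end to end, and those with a number of Bgl II fragment ends within 10% of the gene's own were kept as matched windows. Erbb4 held 699 fragment ends and had 905 matched windows. Cntnap2 held 1144 and had 389, Csmd1 held 1093 and had 639, and Lrp1b held 1209 and had 581. A percentile below is the percent of matched windows with a lower value. Fragment ends per Mb ranged from 497 at Cntnap2 to 607 at Csmd1. Among all windows of its length these densities put Cntnap2 at percentile 22.9 and Csmd1 at percentile 76.8.

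The 4 genes lay in the eigenvector class with fewer fragment ends, here class 2. The eigenvector was scaled so that its root mean square is 1 on each chromosome, and negative values mark class 2. Its mean was -0.99 over Erbb4, -0.93 over Cntnap2, -1.18 over Csmd1 and -0.95 over Lrp1b. In bins of 1 Mb, class 2 covered the whole of Erbb4, Csmd1 and Lrp1b and 87.0% of Cntnap2. Of all autosomal windows of the same length, 49.8% lay wholly in class 2 for the length of Erbb4, 41.1% for Cntnap2, 45.7% for Csmd1 and 41.7% for Lrp1b. Among matched windows the shares wholly in class 2 were 60.3%, 63.0%, 32.2% and 46.1%, in the same order. A place in class 2 was thus common among the matched windows. Without balancing of the matrix 2 of the 4 genes were in class 2, but that eigenvector had 1 sign over most bins of 14 of 19 autosomes.

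Csmd1 had the lowest eigenvector of the 4 relative to its matched windows. Its value stood at percentile 4.23, against a matched median of -0.10. The others lay nearer the middle, at percentile 37.9 for Erbb4, 53.0 for Cntnap2 and 32.0 for Lrp1b. Of the windows matched to Csmd1, 51.8% had their centre in class 2, against 69.5% to 82.5% for the other genes.

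Cntnap2 was the only one of the 4 windows that met bins of both classes. The eigenvector was -1.28 in the first bin of 1 Mb, -1.25 in the second and 1.28 in the bin after that. Only 0.3 Mb of this last bin lies in the window. Its value rests mostly on DNA past the window end, so the class of the last 0.3 Mb was not measured separately. The region of the same length after it lay wholly in class 1, with a mean of 1.31. The region before it had a mean of -1.09. Erbb4 and Csmd1 had class 2 on both sides, with means of -0.96 and -0.86 around Erbb4 and -0.61 and -0.81 around Csmd1. The regions around Lrp1b were mixed, with 63.6% of the length before it and 54.5% of the length after it in class 2.

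**Figure D1:**
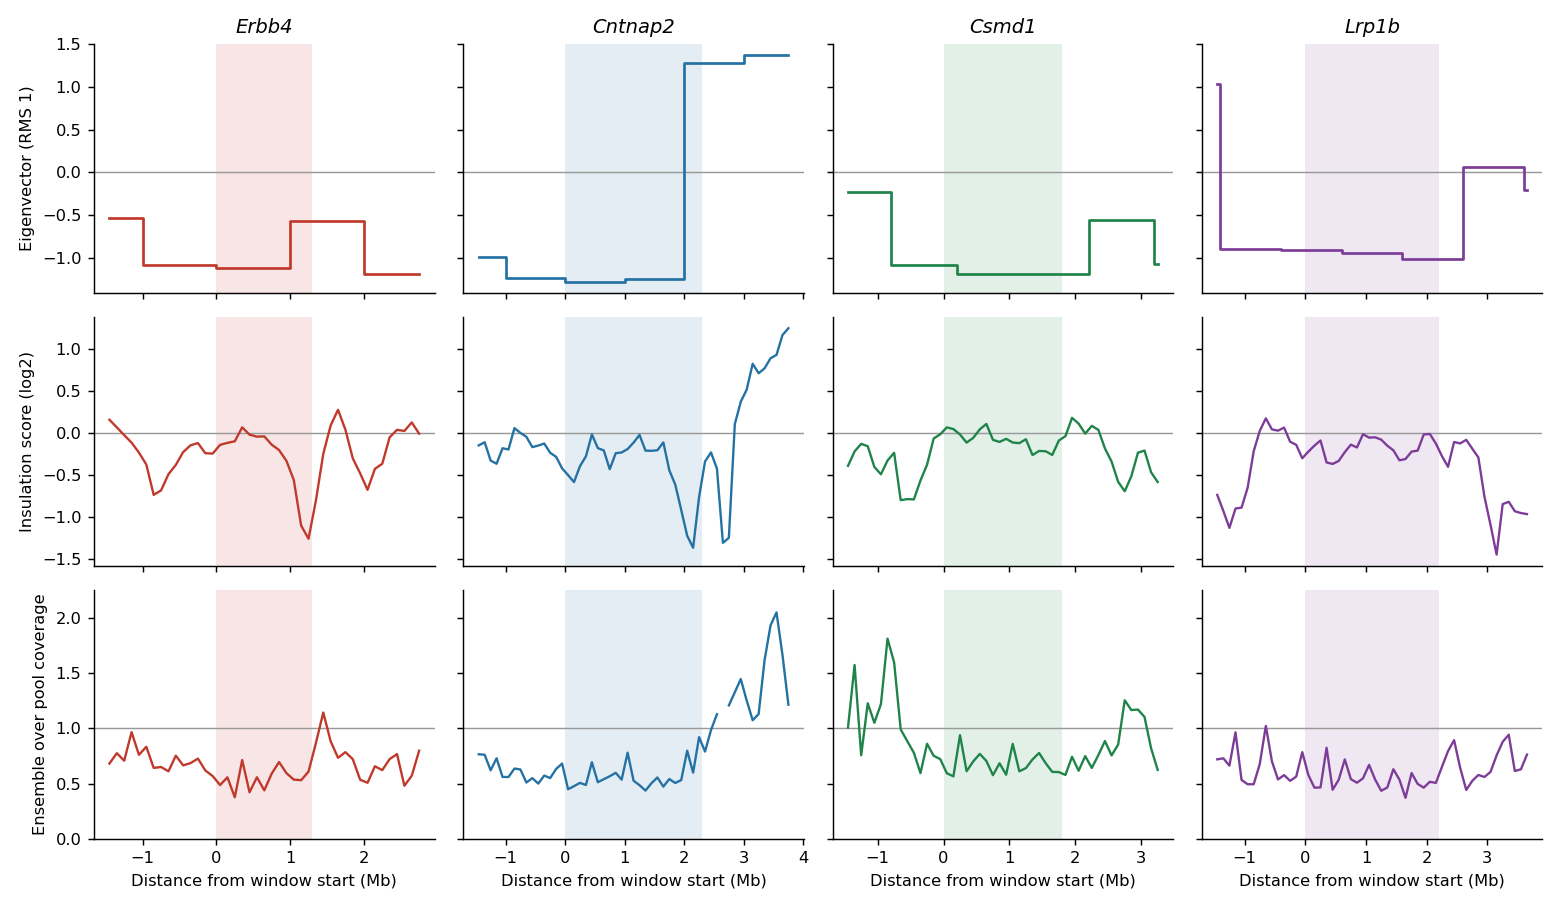
Tracks along the 4 windows (shaded) and 1.5 Mb on either side, against distance from the window start. The upper row shows the ensemble eigenvector in bins of 1 Mb, and the middle row the ensemble insulation score on a log2 scale. The lower row shows coverage in the ensemble over coverage in the remaining pool in steps of 100 kb. Left blank is 1 step beside Cntnap2 that held 0 fragment ends and no contact in either map. The eigenvector turns positive in the bin that holds the last 0.3 Mb of Cntnap2 and reaches past its end. The deepest insulation minima inside the windows lie near the right ends of Erbb4 and Cntnap2, and the coverage ratio lies below 1 in each step inside the 4 windows.

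Coverage in the ensemble was low at Erbb4, Csmd1 and Lrp1b, while in the pooled single cells the 4 genes had 0.890 to 1.09 of their matched medians. Coverage is the number of contact ends divided by the number of fragment ends. The ensemble had 38.8 at Erbb4, 44.7 at Cntnap2, 52.0 at Csmd1 and 36.6 at Lrp1b. The matched medians were 63.7, 53.1, 85.8 and 68.1, so the genes had 0.610, 0.843, 0.606 and 0.538 of them. These values stood at percentiles 7.40, 29.8, 4.69 and 2.41. Lrp1b, Csmd1 and Erbb4 were therefore thinly covered among their matched windows, while Cntnap2 was within the common range. The matched windows were of both classes. Among class 2 windows alone the percentiles were 9.91 at Erbb4, 36.1 at Cntnap2, 9.06 at Csmd1 and 3.47 at Lrp1b.

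Coverage in the remaining pool lay closer to the matched medians as a ratio, but the matched windows also varied less there. It was 2.98 at Erbb4, 3.27 at Cntnap2, 3.20 at Csmd1 and 2.84 at Lrp1b, which was 0.945, 1.09, 0.980 and 0.890 of the matched median. The percentiles were 29.2, 81.2, 36.5 and 10.2. For Lrp1b, the 10th and 90th percentiles of the matched windows were 2.84 and 3.47 here, against 44.1 and 102 in the ensemble. At a ratio of 0.890, Lrp1b was thus near the 10th percentile of its matched windows. In the sum of the 9 Bgl II cells, which share no contact with the remaining pool, the ratios were 1.057, 1.052, 0.859 and 0.982. Csmd1 was the lowest of the 4 in that sum, at percentile 5.95.

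Coverage in the ensemble was then divided by coverage in the remaining pool, each taken as a share of its map's contacts. This comparison was added after the values were seen. The ratio was 0.533 at Erbb4 (95% counting interval 0.509 to 0.557), against a matched median of 0.818, and 10 of 905 matched windows were lower. At Cntnap2 it was 0.560 (0.541 to 0.579), against 0.721, and 18 of 389 were lower. At Csmd1 it was 0.664 (0.642 to 0.687), against 1.04, and 23 of 639 were lower. At Lrp1b it was 0.527 (0.509 to 0.546), against 0.862, and 0 of 581 were lower, the lowest matched window being at 0.532. All 4 thus lay below the 10th percentile, where by construction 10% of the matched windows lie. With 1 ensemble map and 1 pool the ratio has no replicate and no test.

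The ratio moved with the eigenvector class among the matched windows themselves. Their median was 0.740 in class 2 and 1.11 in class 1 for Erbb4, 0.678 and 1.08 for Cntnap2, 0.916 and 1.203 for Csmd1, and 0.768 and 1.103 for Lrp1b. Within class 2 alone the 4 genes stood at percentiles 1.48, 5.61, 6.95 and 0. Base composition and the length of the restriction fragments, which need the mm9 sequence, were not examined, and their part in the ratio was not tested.

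The ratio was low along most of each window. In steps of 100 kb it ranged from 0.376 to 0.713 over the 13 steps of Erbb4, from 0.437 to 0.921 over the 23 of Cntnap2, from 0.566 to 0.939 over the 18 of Csmd1 and from 0.371 to 0.825 over the 22 of Lrp1b. It lay below the median of the matched windows in 13 of 13, 20 of 23, 18 of 18 and 22 of 22 steps. That median is of whole windows, and steps were not counted in matched windows. Since the steps make up the low value of each window, these counts are not a separate result. The highest step of Cntnap2 was its last, in the class 1 bin that reaches past the window end. In the ensemble the median fragment end had 36 contacts in Erbb4, 40 in Cntnap2, 48 in Csmd1 and 33 in Lrp1b. The lower and upper quartiles were 26 and 47, 28 and 57, 35 and 67, and 24 and 46 contacts.

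The DNA next to the genes had higher ratios in 8 of 8 flanks of the same length. The ratios of the genes were so low that most windows anywhere were higher. The same count was not made around matched windows of equally low ratio. It therefore does not show that the low ratio is confined to the genes. Around Erbb4 the ratio was 0.721 before and 0.720 after the window. Around Csmd1 it was 1.051 and 0.851, and around Lrp1b 0.890 and 0.682. Around Cntnap2 it was 0.606 before and 1.27 after, where the class changes. The flanks after Cntnap2 and before Csmd1 were the only ones above 1.

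In the ensemble, cis and trans contacts were both thin at Csmd1 and Lrp1b. At Erbb4 trans contacts were thin and cis contacts stood just above the 10th percentile. Cntnap2 was within the common range for both. Cis coverage, from contacts within the chromosome, was 0.644 of the matched median at Erbb4, 0.869 at Cntnap2, 0.608 at Csmd1 and 0.531 at Lrp1b. Trans coverage was 0.580, 0.821, 0.608 and 0.539 of it. In the remaining pool cis coverage was 1.03, 1.13, 1.01 and 0.931 of the matched median and trans coverage 0.626, 0.959, 0.863 and 0.765. Their percentiles were 63.2, 93.6, 52.7 and 19.4 for cis and 4.31, 40.4, 27.2 and 15.3 for trans coverage. Erbb4 combined a cis coverage near the median with a low trans coverage there, and the latter restates its choice.

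**Figure D2:**
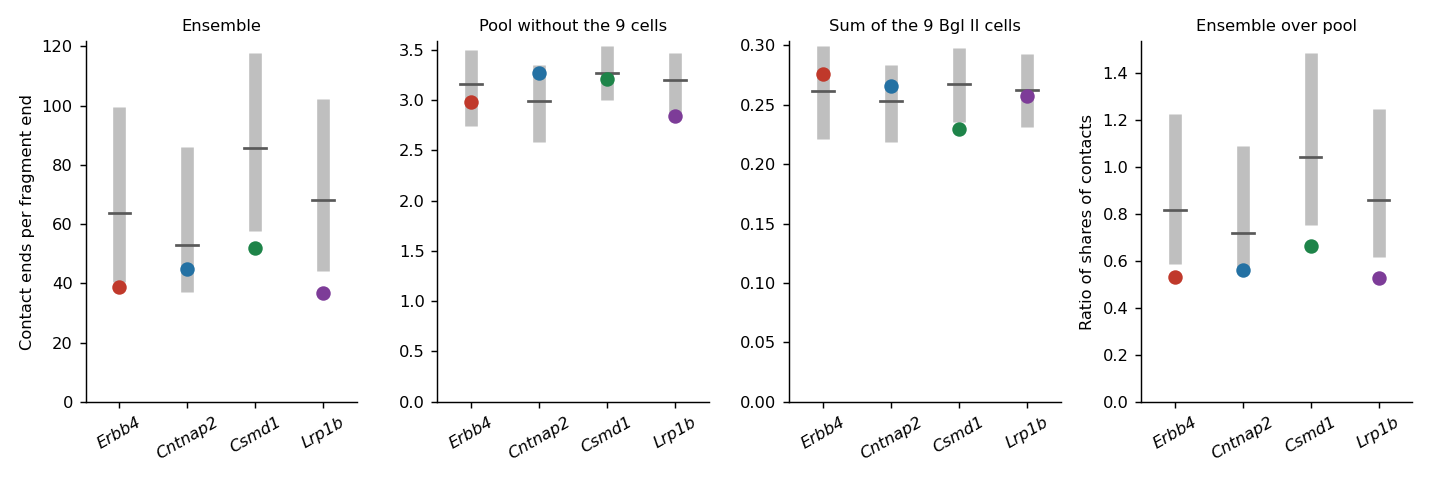
Contact ends per fragment end at the 4 genes (coloured points) in the ensemble, the remaining pool and the sum of the 9 Bgl II cells, and the ratio of ensemble to pool coverage. Grey bars run from the 10th to the 90th percentile of the matched windows and dark lines mark their median; Erbb4, Csmd1 and Lrp1b lie below the bars in the ensemble, all 4 genes lie below them in the ratio, and the genes lie within or close to the bars in both single-cell maps.

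In the 9 Bgl II cells coverage was compared with the pooled matched windows of the same cell. A two-sided exact sign-flip permutation test was run over the cells, and p-values were adjusted by Benjamini-Hochberg over all windows of that length. The smallest p this test can give with 9 cells is 0.00391. Adjusted over the 1012 to 1276 windows of a length, that p stays above 0.05 unless many windows reach it together. A single window could therefore not pass by itself, whatever its difference. At Csmd1 coverage was lower by a fraction of 0.147 ± 0.182 (SD, n = 9), below the matched windows in 8 of 9 cells. The exact p was 0.0352 and the adjusted p 0.412, so the difference did not pass. The same test called 10.2% of all windows of that length in either direction at an unadjusted p under 0.05. Csmd1 held 12 to 50 contact ends in a cell, with a median of 23. The lowest was cell 5, at 0.528 of the matched median. Without it the difference was -0.106 (exact p = 0.0703).

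At Cntnap2 the mean difference in coverage was 0.036 ± 0.234 (SD, n = 9), with 4 of 9 cells below (exact p = 0.664, adjusted p = 0.901). At Lrp1b it was -0.056 ± 0.234 (SD, n = 9), with 5 of 9 cells below (exact p = 0.516, adjusted p = 0.831). The background of calls was 11.8% of windows for the length of Cntnap2 and 9.58% for that of Lrp1b. Neither difference was larger than the spread between cells. At Erbb4, for which no test was run, the mean was 0.009 ± 0.238 (SD, n = 9), with 4 of 9 cells below.

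The trans share, the feature for which Erbb4 was chosen, is the percent of a window's contact ends that belong to trans contacts. In the ensemble it was 47.7% at Erbb4 (12947 of 27153 ends), 50.1% at Cntnap2, 49.05% at Csmd1 and 49.9% at Lrp1b. These values stood at percentiles 24.97, 42.2, 45.5 and 47.8. In the ensemble all 4 genes were thus inside the common range.

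The trans share of Erbb4 in the remaining pool was 12.3% (256 of 2085 ends, interval 10.9% to 13.8%), against a matched median of 18.6%. That put it at percentile 2.87. It was 15.9% at Cntnap2 (14.7% to 17.1%), 17.6% at Csmd1 (16.3% to 18.9%) and 16.3% at Lrp1b (15.1% to 17.5%). The matched medians were 18.2%, 19.7% and 19.04%. These 3 genes stood at percentiles 23.7, 29.9 and 24.96, lower than the median without being unusual. With class 2 windows as the match, Csmd1 came to 17.6% against 17.7%, and its percentile was 47.1.

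The trans share around Erbb4 also lay below the matched median. In the remaining pool it was 15.2% (13.7% to 16.8%) in the region before it and 13.3% (11.97% to 14.8%) in the region after it. Both intervals overlapped that of the gene, the one before it only at its edge. The regions around Cntnap2 differed from each other, with 13.9% before and 23.6% after the gene, and Cntnap2 at 15.9% lay between them. Around Csmd1 the values were 18.2% and 20.0%, and around Lrp1b 19.2% and 15.9%.

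Cell by cell, the trans share at Erbb4 was 5.56% in cell 1, 15.6% in cell 2, 3.12% in cell 3, 15.4% in cell 4 and 21.1% in cell 5. It was 5.88% in cell 7 and 11.1% in cell 9. Cells 6 and 10 had 0 trans ends among 15 and 7 ends, which allows a share of up to 20.0% and 42.9% if 3 counts are taken as the limit for a count of 0, as is done for each 0 below. The Dpn II cell had 0 among 9, which allows up to 33.3%. Cell 5 was the only one of the 9 above its own matched windows, which stood at 18.7%. The mean difference from the matched windows was -8.43 ± 7.44 percentage points (SD, n = 9), with 8 of 9 cells below. This restates the choice of Erbb4 and has no test. Summed over the 9 cells, 18 of 193 ends were trans, or 9.33% (5.98% to 14.3%), against 14.8%, 13.5% and 12.9% at Cntnap2, Csmd1 and Lrp1b.

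At Cntnap2 the share ranged from 0% in cell 6, with 35 ends, through a median of 20.0% to 32.0% in cell 5. A count of 0 among 35 allows up to 8.57%. The mean difference from the matched windows was -1.13 ± 6.46 percentage points (SD, n = 9), with 6 of 9 cells below. It did not differ beyond the spread between cells (exact p = 0.617, adjusted p = 0.828). The test called 9.88% of windows of that length lower at an unadjusted p under 0.05.

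At Csmd1 the share ranged from 0% in cells 6 and 7 through a median of 16.2% to 27.6% in cell 4. With 23 and 22 ends in cells 6 and 7, counts of 0 allow up to 13.0% and 13.6%. The mean difference was -4.09 ± 7.13 percentage points (SD, n = 9), with 6 of 9 cells below (exact p = 0.133, adjusted p = 0.439). The background of windows called lower was 9.8%.

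At Lrp1b the share ranged from 0% in cell 1, where 0 of 51 ends allows up to 5.88%, through a median of 7.69% to 36.6% in cell 3. The mean difference was -4.26 ± 9.91 percentage points (SD, n = 9), with 7 of 9 cells below (exact p = 0.227, adjusted p = 0.561). The background was 9.68%. Lrp1b had the widest spread of the 4, since cell 3 had 36.6% against 24.0% in its matched windows and cell 10 had 3 of 10 ends against 17.4%, while the other 7 cells lay below theirs. In cell 8, cut with Dpn II, 3 of 18 ends at Cntnap2, 1 of 14 at Csmd1 and 3 of 19 at Lrp1b were trans. None of the 3 tested genes passed, and with these tests 0 windows of those lengths anywhere on the autosomes passed at an adjusted p under 0.05. As for coverage, a single window could not pass by itself with 9 cells. The adjusted values therefore cannot decide whether 1 gene differs.

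**Figure D3:**
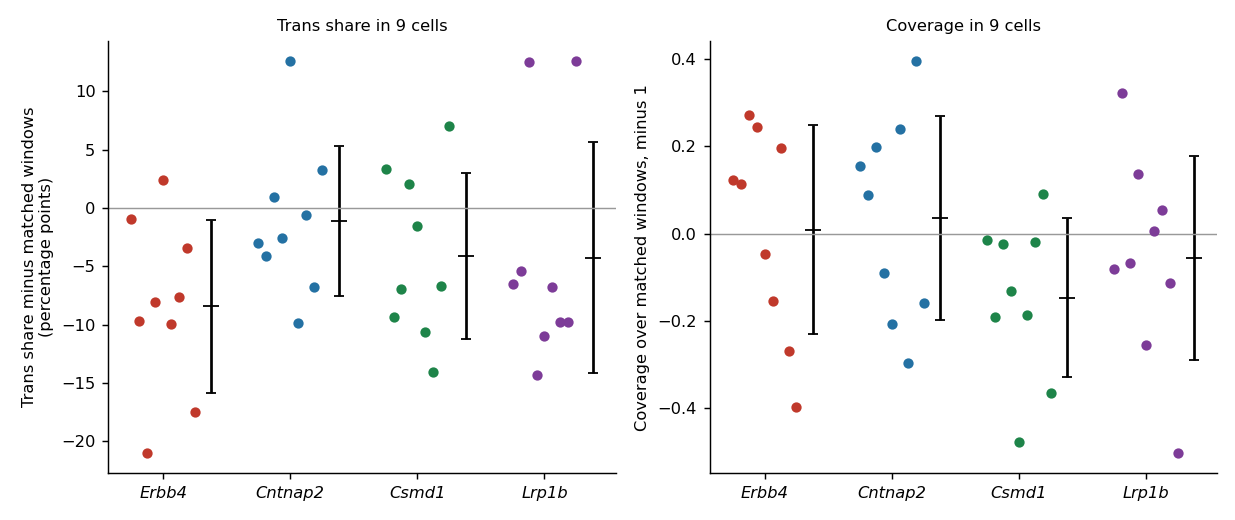
Difference of each gene from the pooled matched windows of the same cell in the 9 Bgl II cells, as percentage points of trans share (left) and as a fraction of coverage (right). Each point is 1 cell, in the order cells 1 to 7, 9 and 10 from left to right, and bars show the mean and SD; at Erbb4 8 of 9 cells lie below 0 for the trans share and 4 of 9 for coverage.

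The trans contacts of a gene in a cell went to 1 chromosome in some cells and to many in others. At Cntnap2, 5 of the 6 trans ends in cell 4 and 7 of the 8 in cell 5 were joined to chromosome 9. Over the 9 cells 12 of its 45 trans ends went there. In cell 2, by contrast, its 10 trans ends met 8 chromosomes, and the 13 of Lrp1b met 12. The same count was not made for matched windows. At Lrp1b, 5 of 15 in cell 3 went to chromosome 6. At Csmd1 no chromosome had more than 3 in a cell, and at Erbb4 none more than 2. In the sum of the 9 cells Erbb4 met 11 chromosomes, Cntnap2 15, Csmd1 15 and Lrp1b 17. Such contacts of a single cell come from a few copies of each chromosome and are not independent of one another.

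Relative to the matched windows, the partners of Csmd1 were the most one-sided. Of its trans ends in the remaining pool, 75.5% met class 2, against a matched median of 51.7%, at percentile 98.1. In the sum of the 9 cells it was 79.4%, at percentile 97.4, and in the ensemble 54.2%, at percentile 93.6. Among class 2 windows alone these became percentiles 96.4, 95.02 and 87.6. Lrp1b followed with 73.1% in the remaining pool, at percentile 90.2. Cntnap2 had 71.7% and Erbb4 70.3%, at percentiles 75.3 and 71.7, close to other windows. Among class 2 windows alone, Lrp1b, Cntnap2 and Erbb4 stood at percentiles 85.9, 70.1 and 62.1 in the remaining pool. The shares of the 4 genes themselves lay close together there, and fewer of the windows matched to Csmd1 had their centre in class 2.

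The same held for the far cis partners, those on the same chromosome more than 10 Mb away. At Csmd1 88.3% of them were in class 2 in the remaining pool, 91.6% in the sum of the 9 cells and 77.4% in the ensemble. The percentiles were 97.0, 99.2 and 97.97. In the remaining pool the values were 86.9% at Erbb4, 84.6% at Lrp1b and 82.6% at Cntnap2, at percentiles 86.5, 86.6 and 67.1. Among class 2 windows alone, Csmd1, Erbb4, Lrp1b and Cntnap2 stood at percentiles 94.3, 82.0, 80.7 and 60.1 there. The eigenvector was computed from the ensemble cis contacts. The ensemble value for far cis contacts is therefore not separate from it, whereas those of the single cells and the trans contacts come from other contacts.

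Far contacts also made up much of the cis contacts of these genes. They were, for the remaining pool, 41.0% of cis ends at Erbb4, 45.3% at Cntnap2, 38.1% at Csmd1 and 36.5% at Lrp1b, at percentiles 86.4, 96.7, 83.6 and 67.5. In the ensemble they were 54.9%, 59.1%, 46.6% and 55.9%, at percentiles 78.6, 86.6, 55.6 and 86.7. In the sum of the 9 cells Csmd1 reached 55.3%, against a matched median of 36.9%, and above all of its 639 matched windows. It was 35.7% in cell 5 and between 47.4% and 66.7% in the other 8 cells. The rank of Csmd1 in the remaining pool and the ensemble was lower, and this value was picked out after it was seen.

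The genes differed in their domain structure. Domains were taken from minima of the insulation score, a measure of how many contacts cross a point, and the prominence of a minimum on the log2 scale measures how strong the boundary is. The genome-wide set held 3273 boundaries with a median prominence of 0.34, and domains had a median length of 650 kb. The windows contained 2 boundaries at Erbb4, 5 at Cntnap2, 3 at Csmd1 and 2 at Lrp1b, against matched medians of 2, 4, 2 and 3. A 250 kb insulation window gave 23 boundaries in the 4 windows in place of 12, and a minimum prominence of 0.2 in place of 0.1 gave 8.

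Erbb4 and Cntnap2 each had a strong boundary at the end with the higher coordinates. At Erbb4 it lay at position 69250000 of chromosome 1, 0.05 Mb inside the window end, with a prominence of 1.57. That is stronger than 92.4% of all boundaries. At Cntnap2 it lay at 47100000 of chromosome 6, 0.20 Mb inside the end and next to the change of class. Its prominence of 2.83 was above 99.0% of all boundaries. As the strongest boundary of a window, these stood at percentiles 88.5 and 98.7 of the matched windows. The other boundaries inside both windows had prominences of 0.14 at Erbb4 and 0.11 to 0.60 at Cntnap2.

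Csmd1 and Lrp1b contained no boundary as strong as these. The strongest inside Csmd1 had a prominence of 0.39 and the strongest inside Lrp1b 0.42, above 53.5% and 55.7% of all boundaries. As the strongest boundary of a window they stood at percentiles 10.95 and 9.47 of the matched windows, whose medians were 0.89 and 0.95. Stronger boundaries lay outside. Around Csmd1 they were 0.65 Mb before the start (prominence 0.71) and 0.95 Mb after the end (0.95). Around Lrp1b they were 1.3 Mb before the start (1.32) and 0.90 Mb after the end (2.19). The longest domain inside Lrp1b was 1100 kb, longer than 84.7% of domains.

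The share of contacts kept within a domain differed among the genes. Of the ensemble contacts inside Csmd1 with 50 kb to 1 Mb between their ends, 44.4% (840 of 1891, interval 42.2% to 46.7%) stayed within 1 domain. The pooled matched windows had 71.4%. At Cntnap2 it was 46.8% (44.0% to 49.5%) against 62.7%. At Erbb4 it was 63.9% (59.9% to 67.6%) against 69.4%, and at Lrp1b 66.9% (64.2% to 69.4%) against 68.2%. In the remaining pool the values were 49.8% (43.9% to 55.7%) at Csmd1 against 76.3% and 141 of 282 contacts at Cntnap2 (interval 44.2% to 55.8%) against 64.0%. Erbb4 had 74.3% against 72.4% there, and Lrp1b 66.0% against 71.4%. In the sum of the 9 cells Csmd1 had 76.9% (10 of 13, interval 49.7% to 91.8%) against 77.0%, and Cntnap2 44.0% (11 of 25, interval 26.7% to 62.9%) against 65.0%. The shares of Csmd1 and Cntnap2 were thus below those of the matched windows in the ensemble and the remaining pool, and that of Csmd1 was not in the few contacts of the 9 cells. These shares depend on where the weak boundaries are placed and on how many lie inside a window. Csmd1 and Cntnap2 held more boundaries than most matched windows, at percentiles 83.5 and 81.7, and the shares were not corrected for this.

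Erbb4, Csmd1 and Lrp1b were also thin in contacts inside the window in the ensemble, and Cntnap2 less so. Contacts with both ends in the window were divided by the number of possible pairs of fragment ends. From 50 kb to 1 Mb the ensemble density was 2.86 contacts per 1000 pairs at Erbb4, 2.97 at Cntnap2, 4.19 at Csmd1 and 2.53 at Lrp1b. This was 0.454, 0.690, 0.462 and 0.380 of the matched medians, at percentiles 8.18, 20.6, 4.69 and 3.10. Among class 2 windows alone the percentiles were 10.9, 24.9, 9.06 and 4.46. A window whose fragment ends are all covered less loses density at both ends of each contact. The square of the coverage ratio was 0.372, 0.710, 0.368 and 0.290. Density was therefore 1.22, 0.971, 1.26 and 1.31 of that square, at percentiles 84.0, 32.6, 85.0 and 96.0. Density in the remaining pool was 0.832, 0.973, 0.790 and 0.899 of the matched medians. Over the square of the coverage ratio there, it was 0.932, 0.813, 0.824 and 1.14, at percentiles 26.3, 4.63, 7.20 and 75.9. Erbb4 and Csmd1 were thus above that square in the ensemble and below it in the remaining pool.

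The slope of density against distance on log scales was -0.56 at Erbb4, -0.60 at Cntnap2, -0.51 at Csmd1 and -0.52 at Lrp1b in the ensemble. The matched medians were -0.59, -0.59, -0.67 and -0.63. Csmd1 and Lrp1b fell off more slowly than most matched windows, at percentiles 90.1 and 89.0, while Erbb4 and Cntnap2 were at percentiles 61.3 and 47.3. From 20 kb to 500 kb the order turned, and the 4 genes were steeper than the matched median, at percentiles 26.0, 13.9, 12.1 and 11.2. The remaining pool gave slopes from 50 kb to 1 Mb of -0.67, -0.82, -0.77 and -0.73, at percentiles 86.9, 55.8, 85.8 and 89.8. The single cells had too few internal contacts for a slope, at most 10 in a cell, and in cell 9 Erbb4 had 0.

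**Figure D4:**
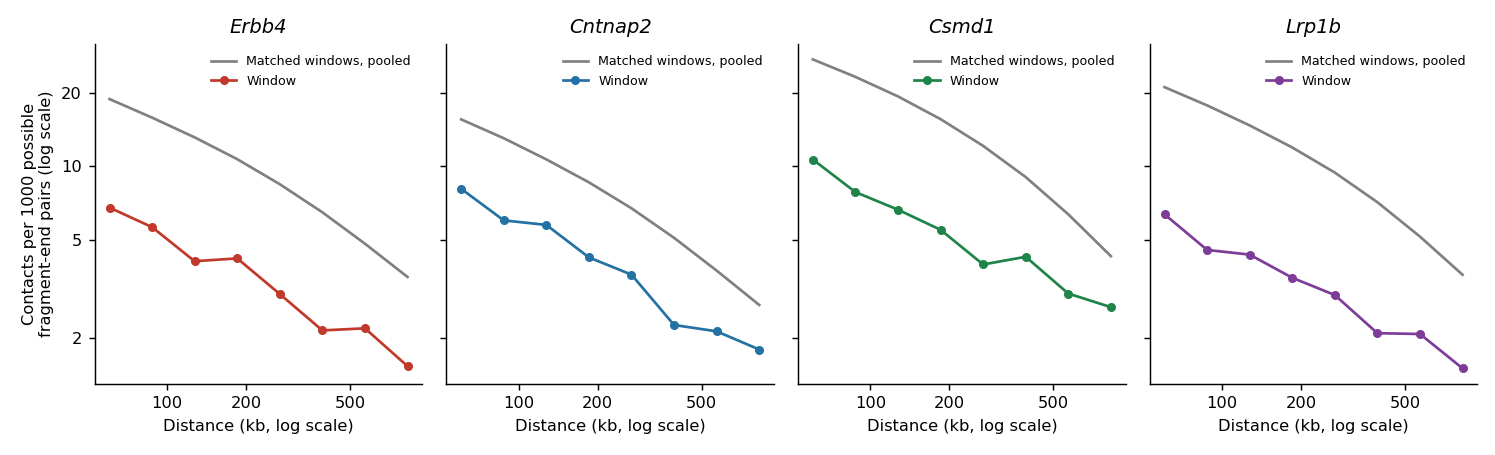
Ensemble contacts inside each window per 1000 possible pairs of fragment ends against the distance between the ends, both on log scales from 50 kb to 1 Mb (coloured), with the matched windows pooled (grey). Each gene lies below its matched windows at each distance plotted.

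Contacts between the genes were counted over their 6 pairs. In the ensemble 76 trans contacts joined 2 of the genes, against 54.8 expected from the product of their trans totals, a ratio of 1.39. Against the 59.6 expected from the contacts between their chromosomes, the ratio was 1.28. Cntnap2 with Csmd1 had the most, 21 against 13.6 expected, and Erbb4 with Lrp1b the fewest, 5 against 5.45. Erbb4 with Csmd1 had 13 against 6.88. Among pairs of matched windows on the same chromosomes, the ratios stood at percentile 97.0 for Erbb4 with Csmd1, 91.9 for Cntnap2 with Csmd1 and 91.7 for Erbb4 with Cntnap2. They stood at percentile 62.7 for Csmd1 with Lrp1b, 45.4 for Cntnap2 with Lrp1b and 22.4 for Erbb4 with Lrp1b. Such matched pairs themselves had pooled ratios of 1.097 to 1.185, and they were not limited to class 2. The remaining pool held 4 contacts against 1.73 expected, 2 between Cntnap2 and Csmd1 and 2 between Csmd1 and Lrp1b. The 9 cells held 0.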

How the data were processed

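Each deposited file lists chromosome and position of the 2 fragment ends of a contact, 1 line per distinct contact, with 0 lines repeated. Values such as positions have no unit of signal (recorded as other) and, per the labels, the authors used build mm9. The aligner and the read filters are not stated in those sources. The members, lists and comparisons were chosen with earlier results of these data known. From the files, fragment ends were the distinct ends seen in the ensemble. The eigenvector came from balanced 1 Mb cis matrices, observed over expected by distance, signed by fragment-end density, without gene or activity annotation. Insulation used balanced 50 kb bins, a 500 kb window and a minimum prominence of 0.1. The genes named are the 4 members, with the chromosome holding most of a member's trans contacts in a cell. Matched windows do not overlap a member. The sign-flip test was tested on simulated data. Alternatives changed the matching, tiling, class, short contacts, window ends, cells, bins and distances. Other long genes were not analysed here, and the neighbours of Cntnap2 are not reported here. Python 3.11.15, numpy 2.4.6 and scipy 1.17.1 were used.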

Additional observations from a re-analysis of the deposited data

How the results depend on the processing

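The number of genes below the 10th percentile of the ensemble over pool ratio was 4 under each of the 5 alternatives tried, which were chosen after seeing the data. The percentiles ranged from 0.453 to 2.03 at Erbb4, 1.54 to 6.98 at Cntnap2, 1.19 to 8.74 at Csmd1 and 0 to 0.340 at Lrp1b. Ensemble coverage was below the matched median, where 50% of windows lie by construction, at all 4 genes under each of 5 alternatives. The trans share of the remaining pool was too, but Erbb4 was chosen for it, and Csmd1 came to -0.143 points with class 2 windows as the match. With class 2 windows as the match, ensemble coverage was 0.676, 0.901, 0.715 and 0.615 of the median at Erbb4, Cntnap2, Csmd1 and Lrp1b.

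Leaving out 1 cell at a time moved the coverage difference from -0.176 to -0.106 at Csmd1 (exact p 0.00781 to 0.0703), from -0.00892 to 0.0776 at Cntnap2 and from -0.103 to 0.000123 at Lrp1b, where the sign turned without cell 9 at Cntnap2 and without cell 10 at Lrp1b. Csmd1 lost its unadjusted call without cell 2, 4, 5, 6 or 10, and with the window shortened by 100 kb at both ends (-0.113, exact p = 0.133). The trans differences ranged from -2.84 to -0.0381 points at Cntnap2, -5.48 to -2.85 at Csmd1 and -6.37 to -3.0 at Lrp1b without 1 cell.

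Without balancing, 2 of the 4 genes were in class 2, but that eigenvector had 1 sign over more than 95% of bins on 14 of 19 autosomes. A 250 kb insulation window gave 23 boundaries inside the 4 windows in place of 12, and a prominence of 0.2 gave 8. From 20 kb to 500 kb, 0 genes in place of 3 were flatter than the matched median, and the slope difference turned from 0.0375 to -0.0406 at Erbb4, 0.160 to -0.0764 at Csmd1 and 0.110 to -0.0750 at Lrp1b. The cause of these changes was not tested. The tests over cells used differences between a window and the matched windows of the same cell. Samples of different groups were not paired, because the replicate numbers only number the samples and do not link them. A single cell gives 7 to 66 contact ends per gene, which limits each cell's trans share.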
